A study of Mus musculus with 12 samples.

Results

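Cultured neural stem cells (NSCs) of the mouse embryo were compared with cultured postnatal astrocytes on 5 of the series' 12 expression arrays, chosen by their titles: 2 arrays of NSCs and 3 of astrocytes. The NSCs came from the telencephalon of embryos at embryonic day 12.5 to 14.5 and grew without serum in DMEM/F12 with N2 supplement, 20 ng/ml basic fibroblast growth factor (bFGF) and 20 ng/ml epidermal growth factor (EGF). The astrocytes came from the cortex at postnatal day 3, grew in the same basal medium, there with 10% fetal bovine serum, and were the cells that fluorescence sorting returned as negative for Sox1-GFP. Both groups carry that reporter, a green fluorescent protein in the Sox1 gene, and are Sox1+/-. The labels give no sort for the NSCs. Age, brain region, medium and sort all go with the group, so their parts in any difference cannot be told apart. The submitters call the arrays biological replicates without naming separate animals or cultures. The p-values therefore cover only the spread among arrays of a group, pooled over all 12 arrays of the series, and some of it may be technical. Where the NSC arrays are uneven, this pooled spread can be smaller than their own.

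In the developing forebrain, radial glia line the ventricle and act as the neural stem cells. They first give neurons, through short-lived progenitors that switch on proneural transcription factors, and later give astrocytes and oligodendrocytes. Astrocyte formation follows the action of nuclear factor I proteins, Sox9 and cytokine signals through STAT3, and mature astrocytes take up glutamate, buffer potassium and move water. In culture, FGF and EGF keep neural stem cells dividing, while serum is known to push astrocytes toward a reactive, contractile state and to induce serum response genes.

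Of 19938 genes measured, 1293 (6.49%) were higher and 1614 (8.1%) were lower in NSCs. A gene is called here when limma, a linear model with a variance shared across genes, gave a Benjamini-Hochberg adjusted p under 0.05 over all genes and the group means differed by at least 1 on the log2 scale. All levels below are log2 intensities, all differences are NSCs minus astrocytes, and errors of differences are standard errors (SE). The largest adjusted p among called genes was 0.026, and the median difference over all genes was -0.03. Large differences lay mostly on the astrocyte side: 59 genes were lower in NSCs by at least 4, and 3 were higher by that much. Those 3 were Nnat (4.67 ± 0.17), an imprinted proteolipid gene of the embryonic brain, Crmp1 (4.67 ± 0.13), a microtubule-binding protein of growing axons, and Bex2 (4.25 ± 0.11).

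Several defining genes of the stem cell state were at like levels in both groups. Sox2, the transcription factor that maintains neural stem cells, read 11.05 and 10.95 on the NSC arrays and 11.28, 11.17 and 11.12 on the astrocyte arrays, a difference of -0.19 ± 0.08. Fabp7, the fatty acid binding protein of radial glia, read 13.19 and 13.19 against 13.11, 13.14 and 13.09 (0.08 ± 0.14). Nes, the intermediate filament nestin, overlapped between the groups, at 10.44 and 10.57 against 10.60, 10.94 and 10.47 (-0.16 ± 0.16). Differences were also small for Vim, the filament vimentin (-0.26 ± 0.10), for the Notch effector Hes5 (0.21 ± 0.15) and for Gli3 (-0.01 ± 0.07), a mediator of Hedgehog signalling. None of these was called, which does not show that they were equal. Sox1 itself, in which the reporter lies, read 8.20 and 8.32 in NSCs and 7.97, 8.25 and 8.17 in the reporter-negative astrocytes (0.13 ± 0.10), and the groups overlapped.

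Of 25 measured neural stem and progenitor factors, 5 were higher (20.0%) and 2 lower (8.0%) in NSCs, with a median difference of 0.15. Over all genes, 6.49% were higher and 8.1% lower. Sall3, a zinc finger factor, read 9.71 and 9.49 against 7.58, 7.67 and 7.69, and was higher by 1.95 ± 0.13. Rfx4, a forebrain patterning factor, was higher by 1.90 ± 0.17, and Dach1, a factor of cortical progenitors, by 1.78 ± 0.10. Zic1, a zinc finger factor of the midline and septum, was higher by 1.44 ± 0.12. Egfr, the receptor for the EGF in the NSC medium, was higher by 1.09 ± 0.14. The NSC arrays lay above all astrocyte arrays for each of these 5 genes, as they did for 27.0% of all genes, and below them for 32.3% of all genes. Lower in NSCs were Id4, an inhibitor of helix-loop-helix factors (-2.60 ± 0.15), and Nr2e1 (Tlx), an orphan nuclear receptor required for adult neural stem cells (-1.05 ± 0.11). Pax6 (-0.90 ± 0.11), Prom1 (-0.91 ± 0.10) and Msi1 (-0.74 ± 0.14) lay on the astrocyte side and missed the fold limit. Nr2e1 dropped under that limit, to between -1.0 and -0.95, without either astrocyte replicate 1, astrocyte replicate 2 or NSC replicate 1. With all arrays kept, it was also under it with cyclic loess normalization (-0.98) and with arrays centred on the median (-0.97).

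Of 21 radial glia genes, 2 were higher (9.5%) and 3 lower (14.3%) in NSCs, shares near those over all genes (6.49% and 8.1%), with a median of -0.26. Sox5, a SoxD factor of early cortical development, was higher in NSCs by 2.16 ± 0.11 and Cspg5, a brain proteoglycan, by 1.12 ± 0.09. Pdpn (podoplanin) read 8.86 and 8.30 in NSCs against 11.08, 11.15 and 10.79 in astrocytes (-2.43 ± 0.20). Fam107a, known from outer radial glia and astrocytes, differed by -1.67 ± 0.22, and Cdh2 (N-cadherin) by -1.34 ± 0.14. The glutamate transporter Slc1a3 (GLAST), shared by radial glia and astrocytes, read 11.07 and 11.14 against 12.05, 12.12 and 12.08. Its difference of -0.98 ± 0.12 lay just under the fold limit.

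**Figure D1:**
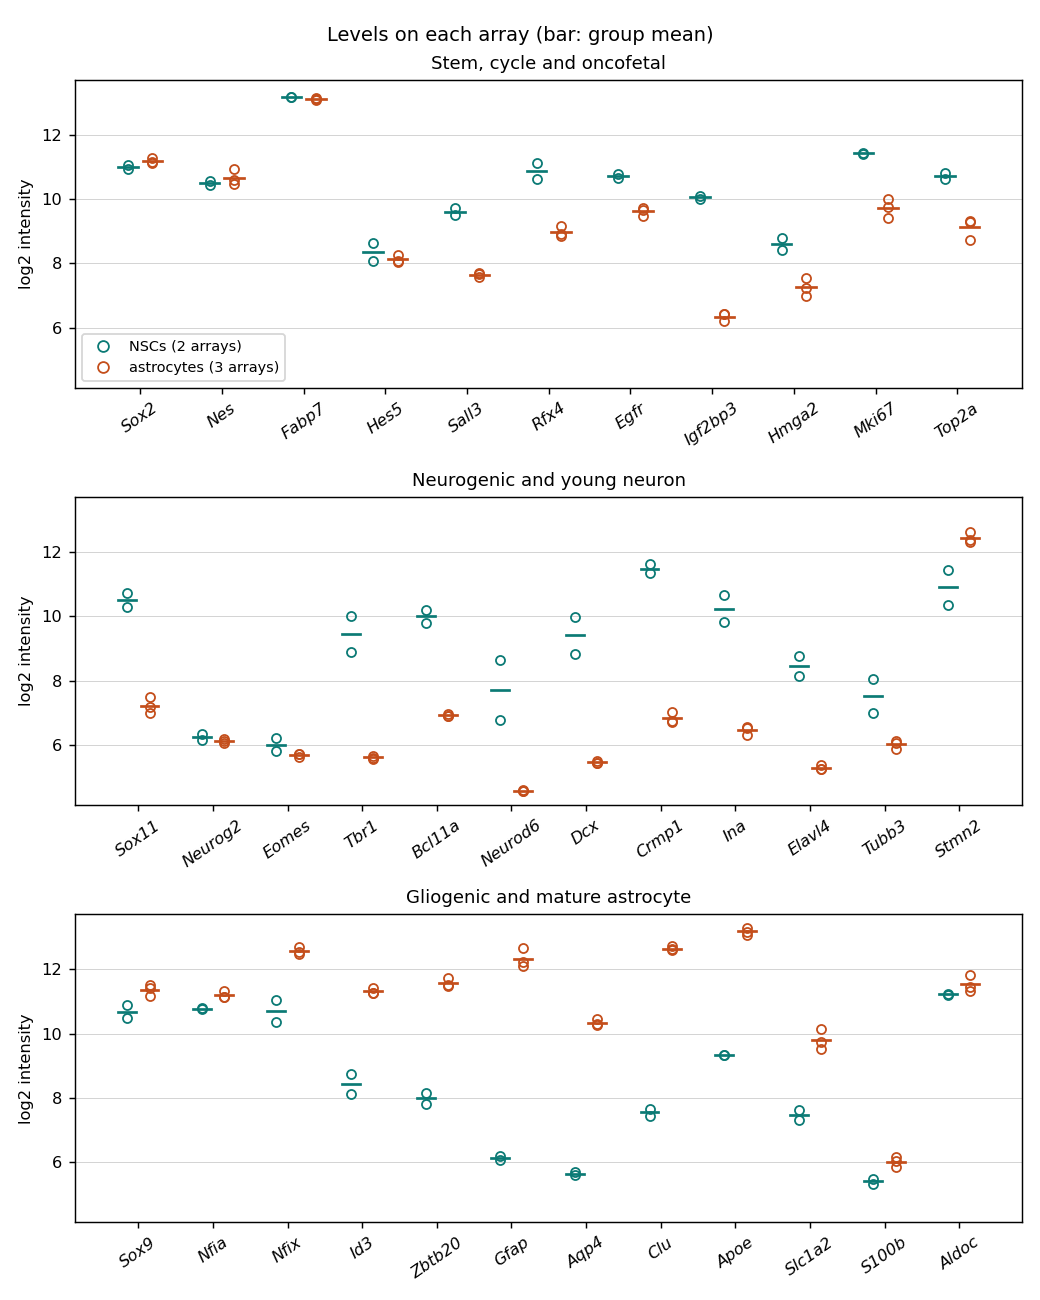
Log2 intensity on each array for genes of the stem cell, neurogenic and glial programmes, with NSCs in green (2 arrays), astrocytes in orange (3 arrays) and a bar at each group mean. Sox2, Nes and Fabp7 lie side by side in the groups, Tbr1, Dcx and Crmp1 lie far higher in NSCs, and Gfap, Aqp4 and Clu far lower.

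Of 10 oncofetal RNA regulators and growth genes, 4 were higher in NSCs and none lower (median 0.27). Igf2bp3, an oncofetal RNA-binding protein, read 10.11 and 10.00 in NSCs and 6.43, 6.19 and 6.41 in astrocytes, a 13.1-fold difference (3.71 ± 0.13). Igf2bp1 was higher by 3.11 ± 0.12 at its brighter probe set and by 1.31 at the other. Hmga2, a chromatin protein of fetal neural stem cells, was higher by 1.36 ± 0.16 and Mycn by 1.12 ± 0.16, the latter 0.93 without NSC replicate 2. The other 6 members were not called, among them Lin28a (-0.11 ± 0.10) and Lin28b (0.44 ± 0.13). Of 17 imprinted growth genes, 7 were higher and 2 lower. Besides Nnat, the higher ones included Grb10, an adaptor that restrains insulin receptor signalling, at 11.05 and 11.12 against 7.39, 7.36 and 7.81 (3.56 ± 0.13), Mest (2.24 ± 0.23) and Meg3 (2.02 ± 0.26). Sgce (-1.68 ± 0.10) and Dlk1 (-1.24 ± 0.12) were lower.

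Cell cycle genes were higher in NSCs almost throughout. Of 27 DNA replication genes, 25 were called higher and none lower, with a median difference of 1.60, and of 27 mitosis genes 26 were called higher and none lower, with a median of 1.46. Uhrf1, which couples DNA methylation to replication, read 10.22 and 10.11 against 7.80, 7.96 and 7.42 (2.44 ± 0.14). Mcm3, a subunit of the replicative helicase, was higher by 2.30 ± 0.18 and Prim1, a primase subunit, by 2.20 ± 0.20. Among mitosis genes, Bub1b, a spindle checkpoint kinase, was higher by 2.06 ± 0.11 and Ccna2 (cyclin A2) by 2.04 ± 0.17. Mki67, the proliferation marker, read 11.41 and 11.43 against 9.74, 9.99 and 9.41 (1.71 ± 0.13). The exceptions were E2f1 (0.36 ± 0.10) and Gins2 (0.76 ± 0.16) among replication genes and Anln (0.03 ± 0.11) among mitosis genes. Astrocyte replicate 3 was the lowest array for both lists, with list means of 7.45 and 8.02 against 7.85 to 7.89 and 8.42 to 8.5 on the other astrocyte arrays. In bulk samples, fewer dividing cells and less RNA per dividing cell cannot be told apart.

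The promoters of the mitosis genes were searched for 2 short elements known from cell cycle genes. RefSeq windows of 300 bases (250 before the start site and 50 after, build GRCm38.p6) were at hand for 23 of the 27 genes, and 18 of them held TTTGAA or TTCGAA on either strand, the core of the cell cycle homology region (CHR), with CCAAT boxes in 17. By window, 80.0% of the list's 25 windows held the CHR letters against 19.2% of all 32851 windows, and 76.0% held CCAAT against 37.4%. Both lay within the 120 bases before the start in 24.0% of the list's windows and in 1.62% of all windows. Of those stretches, 4 are shown, 5′ to 3′ on the gene's strand and ending at the base before the start, with the CHR letters and CCAAT (or ATTGG and TTCAAA on the other strand) in capitals. They are the 4 with the largest differences of the 6 genes that held both. The others, Prc1 (1.07 ± 0.14) and Ect2 (1.16 ± 0.17), were also called higher.
Top2a, chr11:99024190-99024309, minus strand: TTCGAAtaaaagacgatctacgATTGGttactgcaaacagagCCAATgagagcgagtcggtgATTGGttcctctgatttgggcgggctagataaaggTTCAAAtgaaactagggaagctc
Cdk1, chr10:69352913-69353032, minus strand: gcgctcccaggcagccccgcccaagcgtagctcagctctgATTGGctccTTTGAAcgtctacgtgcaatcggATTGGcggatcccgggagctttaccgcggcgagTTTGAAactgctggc
Cdc20, chr4:118437344-118437463, minus strand: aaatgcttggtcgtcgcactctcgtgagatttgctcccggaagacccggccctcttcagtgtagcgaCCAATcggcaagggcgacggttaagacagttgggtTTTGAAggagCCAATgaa
Kif11, chr19:37376262-37376381, plus strand: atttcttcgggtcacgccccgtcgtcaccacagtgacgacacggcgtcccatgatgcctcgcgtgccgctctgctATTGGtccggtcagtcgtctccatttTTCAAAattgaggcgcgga

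Top2a (topoisomerase II alpha), Cdk1 (the mitotic kinase), Cdc20 (an activator of the anaphase-promoting complex) and Kif11 (a spindle kinesin) were higher in NSCs by 1.60 ± 0.15, 1.41 ± 0.14, 1.45 ± 0.09 and 1.89 ± 0.15. A match of letters describes the window and shows no binding. Of 15 cell cycle inhibitors and p53 targets, 5 were lower in NSCs, none was higher and 10 were not called. The lower ones were Gadd45b, Gadd45a and Gadd45g, stress-induced growth arrest genes (-3.42 ± 0.11, -2.52 ± 0.17 and -2.12 ± 0.33), Cdkn2b, the inhibitor p15 (-1.76 ± 0.14), and Sesn1 (-1.35 ± 0.13). The other kinase inhibitors named here were not called: Cdkn2a (-0.91 ± 0.10), Cdkn2c (-0.72 ± 0.17), Cdkn1b (-0.64 ± 0.11), Cdkn1c (0.09 ± 0.18) and Cdkn2d (0.44 ± 0.09).

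Of 33 proneural and neurogenic factors, 13 were higher and 1 lower in NSCs (median 0.62). Tbr1, a factor of early-born cortical projection neurons, read 8.89 and 10.00 in NSCs and 5.66, 5.60 and 5.57 in astrocytes, 14.3-fold apart (3.84 ± 0.23). Sox11, a SoxC factor of immature neurons, read 10.30 and 10.73 against 7.48, 7.18 and 6.99 (3.30 ± 0.15), and its relative Sox4 was higher by 1.34 ± 0.13. Bcl11a (Ctip1), a cortical neuron factor, was higher by 3.08 ± 0.11, and Neurod6, a factor of postmitotic cortical neurons, by 3.13 ± 0.37. Myt1l and Myt1, zinc finger factors of neuronal identity, were higher by 2.06 ± 0.23 and 1.62 ± 0.07. Of the ventral, interneuron-forming Dlx genes, Dlx1 (1.76 ± 0.13) and Dlx5 (1.42 ± 0.11) were higher and Dlx2 (0.62 ± 0.17) missed the limit. Insm1, a zinc finger factor of neurogenic progenitors, was higher by 1.69 ± 0.19.

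Not called were 19 members of the list, early and late factors among them. Neurog2 read 6.14 and 6.33 in NSCs and 6.07, 6.13 and 6.19 in astrocytes (0.11 ± 0.09), and Neurog1 differed by -0.10 ± 0.07. Eomes (Tbr2), the factor of intermediate progenitors, read 5.80 and 6.21 against 5.71, 5.63 and 5.70 (0.33 ± 0.18). Neurod4 (0.02 ± 0.06) and Nhlh1 (0.11 ± 0.11), later factors of the cascade, were not called either. Btg2 (Tis21), an antiproliferative gene of neurogenic divisions that is also an immediate early gene, was lower in NSCs (-2.07 ± 0.17). Over the members brighter than the array median on at least 2 arrays, the list's median was 1.34. A gene bright on the 2 NSC arrays alone passes that filter, which favours genes high in NSCs. The larger median therefore adds no support.

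Genes for proteins of young neurons were higher in 22 of 30 cases and lower in 3, with a median difference of 1.64. Dcx (doublecortin), the microtubule protein of migrating neurons, read 8.84 and 9.97 in NSCs against 5.43, 5.50 and 5.42 in astrocytes (3.95 ± 0.23). Crmp1 read 11.34 and 11.63 against 6.71, 7.01 and 6.74, and Ina (alpha-internexin), a neurofilament of early neurons, 9.83 and 10.65 against 6.51, 6.29 and 6.54 (3.80 ± 0.19). Both NSC arrays lay far above all 3 astrocyte arrays for these genes. Elavl4 (HuD), a neuronal RNA-binding protein, was higher by 3.16 ± 0.14, Dcc, the netrin receptor, by 2.73 ± 0.11 and Gap43, a growth cone protein, by 2.69 ± 0.09. Stmn3 was higher by 2.28 ± 0.08 at its brighter probe set and by 0.03 at a dim one.

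Against that direction, 3 young neuron genes were lower in NSCs. Stmn2 (SCG10), a microtubule regulator of growing axons, read 10.36 and 11.44 in NSCs and 12.37, 12.32 and 12.64 in astrocytes (-1.55 ± 0.23). The adhesion molecules Ncam1 (-1.31 ± 0.18) and Nrcam (-1.21 ± 0.14), which glia also carry, followed. Without NSC replicate 1, the differences were -1.0 for Stmn2, -0.94 for Ncam1 and -0.95 for Nrcam, and Ncam1 and Nrcam were then not called.

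Synaptic and mature neuron genes were higher in 10 of 24 and lower in none (median 0.74). Snap25, a vesicle fusion protein, read 8.83 and 9.32 against 5.89, 6.00 and 6.07 (3.09 ± 0.13), and Syt1, the calcium sensor of release, was higher by 3.02 ± 0.18. Genes of inhibitory and excitatory transmission were among them: Gad2, a GABA-synthesizing enzyme, was higher by 2.10 ± 0.08 and Slc17a6, a vesicular glutamate transporter, by 1.54 ± 0.18. Gad1, Slc32a1 and Slc17a7, in the same list, were not called. Rbfox3 (NeuN) lay just under the limit at 0.98 ± 0.09.

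The neuron genes also separated the NSC arrays from each other. The arrays differed by at least 1 in 119 genes, against 17 to 44 between astrocyte arrays, and 74 of the 119 were higher on replicate 2. Replicate 2 was above replicate 1 by a median of 0.63 over young neuron genes, and by at least 1 in 8 of the 30. Neurod6 read 6.78 on replicate 1 and 8.63 on replicate 2. With predicted genes, clones, chemoreceptor genes and pseudogenes set aside, that was the largest gap in that direction. Fezf2, a factor of deep-layer cortical neurons, read 6.97 and 8.74. Without NSC replicate 2, 17 young neuron genes were higher (median 1.40), and without replicate 1, 23 were (median 1.96). Calls that ended without replicate 2 were Cntn2 (0.59), Dpysl3 (0.71), Dpysl5 (0.86), Mapt (0.86), Tubb3 (0.99) and Neurod1 (0.94). For mature neuron genes the median was 1.08 without replicate 1 and 0.71 without replicate 2. Stem factor, radial glia and mitosis lists lay within 0.09 of each other on the NSC arrays by the same median.

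**Figure D2:**
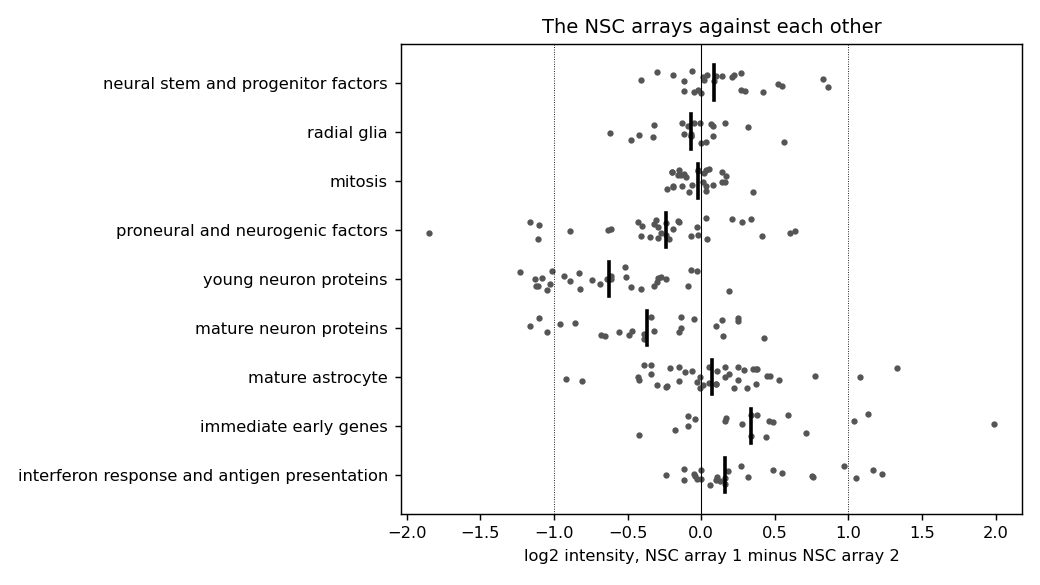
Difference between the NSC arrays, replicate 1 minus replicate 2 in log2 intensity, for each measured gene of 9 lists. Thick bars mark list medians and dotted lines a difference of 1. Young neuron genes lie to the left (median -0.63), while stem factor and mitosis genes centre near 0.

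Of 23 Notch pathway genes, 5 were higher in NSCs, 3 were lower and 15 were not called (median -0.03). Of the ligands, 3 were higher: Dll3 by 2.49 ± 0.14 (8.78 and 8.17 against 5.89, 5.93 and 6.13), Dll1 by 1.89 ± 0.11 and Jag1 by 1.11 ± 0.10. Dll4 (0.01 ± 0.09), Jag2 (0.11 ± 0.12) and Dner (-0.99 ± 0.12) were not called. Nrarp, a feedback inhibitor, was higher by 1.97 ± 0.07, and Mfng, a glycosyltransferase that modifies Notch, by 1.94 ± 0.16. The receptor Notch2 read 8.14 and 8.23 in NSCs and 10.49, 10.54 and 10.68 in astrocytes (-2.39 ± 0.09). The receptors Notch1 (-0.76 ± 0.10) and Notch3 (-0.41 ± 0.20) were not called. The effectors Hey1 (-1.86 ± 0.18) and Hey2 (-1.24 ± 0.18) were also lower in NSCs, and Hes1 was lower on both NSC arrays than in astrocytes but missed the limit (-0.96 ± 0.26).

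Few genes of forebrain position were called. Of 20 regional factors, 4 were higher in NSCs and none lower: Dmrta1 (2.48 ± 0.18), Dlx1, Zic1 and Otx2. Otx2 rested in part on NSC replicate 1, at 8.21 against 7.14 on replicate 2 (1.57 ± 0.26, and 1.03 without replicate 1). The dorsal factors Emx1 (-0.01 ± 0.11) and Emx2 (0.37 ± 0.10) were not called, nor was Lhx2 (-0.73 ± 0.12). The 20 Hox genes, which mark hindbrain and spinal cord, had a median difference of -0.06 and list means of 5.66 on both NSC arrays and 5.66 to 5.8 on the astrocyte arrays.

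Mature astrocyte genes lay mostly on the other side. Of 42 measured, 28 were lower and 2 higher in NSCs, with a median difference of -1.76. Gfap, the astrocyte intermediate filament, read 6.05 and 6.20 in NSCs and 12.22, 12.10 and 12.65 in astrocytes, 73.6-fold apart (-6.20 ± 0.13). Aqp4, the water channel of astrocyte endfeet, read 5.69 and 5.58 against 10.31, 10.25 and 10.46 (-4.71 ± 0.07). The groups lay far apart for both genes. Lipid and secretory genes moved with them: Clu (clusterin), at 7.66 and 7.44 against 12.63, 12.60 and 12.71 (-5.10 ± 0.12), Apoe (-3.84 ± 0.14) and Cst3 (-3.17 ± 0.12).

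Homeostatic transport followed the same order. Kcnj10 (Kir4.1), the potassium channel, differed by -4.09 ± 0.10, and Mlc1 and Hepacam, partners in an endfoot membrane complex, by -3.38 ± 0.08 and -4.12 ± 0.19. Slc1a2 (GLT-1), the later of the astrocyte glutamate transporters, read 7.31 and 7.61 against 9.75, 9.51 and 10.15 (-2.34 ± 0.18). Glul, glutamine synthetase, differed by -1.46 ± 0.10, and Aldh1l1, a folate enzyme used as a pan-astrocyte marker, by -1.61 ± 0.11. Thbs1, a thrombospondin that promotes synapses, differed by -5.65 ± 0.13. The borderline members Ntsr2 (-1.05 ± 0.14) and Mt1 (-1.01 ± 0.13) fell short of the limit when single arrays were left out. With all arrays kept, both were also short of it under median centring, array weights and the replicate block (-0.98 to -0.94).

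Several astrocyte genes were not called. S100b read 5.32 and 5.47 against 6.02, 5.83 and 6.14 (-0.61 ± 0.10), lower on both NSC arrays but within the fold limit, and Gjb6 (connexin 30) read 5.35 and 5.34 against 5.38, 5.38 and 5.49 (-0.08 ± 0.07). Agt, angiotensinogen, differed by -0.11 ± 0.12 and Slc7a10, an amino acid transporter, by 0.16 ± 0.12. Aldoc, a glycolytic enzyme of astrocytes, read 11.20 and 11.23 in NSCs and differed by -0.31 ± 0.15. The 2 members that were higher in NSCs were Grin2c, an NMDA receptor subunit (2.06 ± 0.13), and Fjx1 (1.06 ± 0.10, and 0.98 without astrocyte replicate 3).

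Of 21 gliogenic factors, 7 were lower and 1 higher in NSCs (median -0.60). Zbtb20, a zinc finger repressor that promotes astrocyte formation, read 7.82 and 8.16 in NSCs and 11.48, 11.52 and 11.73 in astrocytes (-3.59 ± 0.16), with -3.48 at its other probe set. Nfix, a nuclear factor I protein, was lower in NSCs (-1.86 ± 0.21), while its relatives Nfia (-0.44 ± 0.08) and Nfib (-0.08 ± 0.14) were not called. Sox9 (-0.69 ± 0.13) and Stat3 (-0.60 ± 0.09) were not called. The BMP-induced inhibitors Id3 (-2.87 ± 0.23), Id1 (-2.59 ± 0.26) and Id2 (-1.73 ± 0.22) were lower in NSCs, as was Foxo1 (-1.66 ± 0.11). Atf3 (-3.68 ± 0.25), a stress-induced factor, is also an immediate early gene.

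Olig2, a factor of oligodendrocyte and neural progenitors, was the gliogenic gene called higher in NSCs, at 12.30 and 12.12 against 10.63, 10.99 and 10.33 (1.56 ± 0.17). Its relative Olig1 lay just under the limit (0.96 ± 0.18), with no overlap between the groups. The count of gliogenic genes called higher was 2 without astrocyte replicate 1, without astrocyte replicate 2 and with arrays centred on the median. Of 23 oligodendrocyte lineage genes, 5 were higher (21.7%, against 6.49% of all genes) and 2 lower (8.7%, against 8.1%). Pdgfra, the receptor that defines oligodendrocyte precursors, read 9.51 and 10.03 against 6.45, 6.68 and 6.58 (3.20 ± 0.20). Ugt8a, a galactolipid enzyme (1.89 ± 0.08), Bcas1 (1.61 ± 0.09) and the proteoglycan Cspg4 (NG2, 1.04 ± 0.15) were also higher. Cspg4 was not called without NSC replicate 2 (0.80). Not called were the myelin genes Mbp (0.02 ± 0.10), Mog (-0.04 ± 0.14) and Mag (-0.12 ± 0.12), nor was Sox10 (0.39 ± 0.10). C1ql1 (-2.93 ± 0.11) and Cnp (-1.24 ± 0.10) were lower in NSCs.

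**Figure D3:**
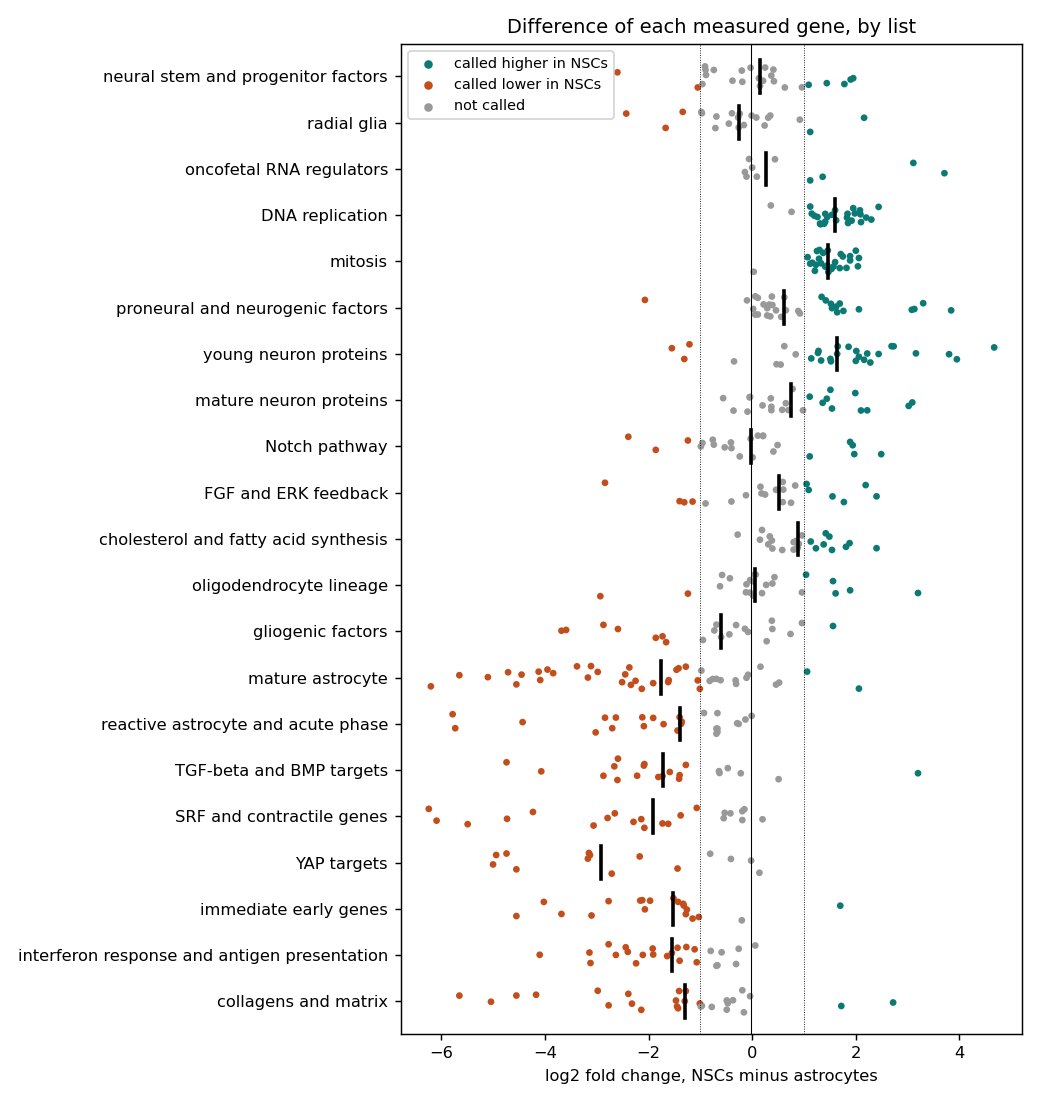
Difference of every measured gene, NSCs minus astrocytes on the log2 scale, by list. Green and orange points are genes called higher and lower in NSCs, grey points are not called, thick bars are list medians, dotted lines mark a difference of 1 and the thin line the median of all genes (-0.03). Replication, mitosis and young neuron genes lie to the right, and mature astrocyte, contractile and YAP target genes to the left.

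The culture media differ in serum and growth factors, and lists of medium-related genes were described with that in mind. Medium goes with age, brain region and sort, so its part in these lists cannot be told apart. Of 22 genes around FGF and ERK signalling, 6 were higher and 4 lower in NSCs (median 0.52). Etv1, an FGF-induced ETS factor, was higher by 2.40 ± 0.10 and Etv4 by 1.05 ± 0.13. The feedback inhibitors Spry1 (2.19 ± 0.16), Spry4 (1.77 ± 0.20) and Dusp4 (1.55 ± 0.15) were higher, while Dusp6 (-0.12 ± 0.19) and Etv5 (0.25 ± 0.07) were not called. Dusp5, another gene of the list, ran the other way, at 7.55 and 7.33 against 9.03, 8.96 and 8.5 (-1.4 ± 0.17). Fosl1, also an immediate early gene, was lower in NSCs too. Of the receptors, Fgfr2 read 7.66 and 7.42 against 10.35, 10.31 and 10.47 (-2.84 ± 0.11), Fgfr1 was lower in NSCs (-1.31 ± 0.07) and Fgfr3 was not called (0.46 ± 0.13).

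Genes known to answer to serum lay on the astrocyte side. Of 19 immediate early genes, 17 were lower in NSCs and 1 higher (median -1.52). Fosb read 6.97 and 6.81 against 11.42, 11.78 and 11.11 (-4.55 ± 0.33). Fos differed by -4.02 ± 0.45, and the NSC arrays read 8.88 and 6.89 for it, replicate 1 being higher. Myc was the exception, higher in NSCs by 1.70 ± 0.15. Of 22 contractile and cytoskeletal targets of serum response factor (SRF), 15 were lower and none higher (median -1.91). Acta2, smooth muscle actin, read 6.38 and 6.82 against 12.92, 13.05 and 12.55, 75.6-fold apart (-6.24 ± 0.16). Cnn1 (calponin, -6.09 ± 0.18) and Tagln (transgelin, -5.49 ± 0.11) followed, while the gene for SRF itself (-0.42 ± 0.14) and Actb (-0.19 ± 0.06) were not called.

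The SRF-binding CArG box was found in the RefSeq windows of 4 of the 19 SRF list genes with a window, in 4 of the list's 21 windows against 1.63% of all windows, and is shown in capitals for 3 of them because those genes were called.
Myl9, chr2:156775273-156775342, plus strand: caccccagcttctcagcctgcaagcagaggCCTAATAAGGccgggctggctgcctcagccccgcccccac
Cnn2, chr10:79988514-79988583, plus strand: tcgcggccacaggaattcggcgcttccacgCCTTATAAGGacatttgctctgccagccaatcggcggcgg
Vcl, chr14:20929148-20929210, plus strand: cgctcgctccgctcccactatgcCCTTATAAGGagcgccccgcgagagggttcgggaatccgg

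The same windows were searched for other pairs of list and motif. The CArG box was in 0 of 14 windows of YAP target genes and in 4 of 18 windows of immediate early genes, all of the latter at Egr2. The nuclear factor I core TTGGC was in 48.7% of mature astrocyte windows and 46.7% of all windows. The STAT element TTCCNGGAA was in 3 of 39 mature astrocyte windows (Agt, Aldoc and Gfap, of which Gfap was called) and in 2 of 24 windows of reactive genes, neither of a called gene, against 1.15% of all windows. The sterol element TCACNCCAC was in 1 of 22 windows of cholesterol genes, at the uncalled Hmgcs1, against 1.24% of all windows.

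The CArG boxes shown begin 161, 56 and 227 bases before the start sites of Myl9, a myosin light chain (-4.73 ± 0.18), Cnn2, a calponin (-4.23 ± 0.17), and Vcl, the focal adhesion protein vinculin (-2.65 ± 0.09). The list of targets of the YAP coactivator, which shares the cytoskeletal input, had 10 of 14 genes lower and none higher (median -2.92). It also holds genes of the pathway itself: Yap1 and Tead1, which were not called, and Wwtr1, which is counted among the lower ones. Ccn2 (CTGF) read 7.29 and 6.78 against 11.76, 11.52 and 12.05 (-4.74 ± 0.24), and Ptgs2 (cyclooxygenase 2) differed by -4.94 ± 0.26. Ccn1 (CYR61) differed by -5.0 ± 0.42 and read 9.32 on NSC replicate 1 and 7.32 on replicate 2. Ankrd1, another target, was not called (-0.02 ± 0.08).

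TGF-beta and BMP genes were lower in NSCs in 15 of 21 and higher in 1 (median -1.73). The ligand Bmp4 read 6.35 and 5.73 in NSCs and 10.21, 10.19 and 9.93 in astrocytes (-4.07 ± 0.15), and Tgfb2 differed by -1.81 ± 0.10. The feedback inhibitors Smad6 (-2.22 ± 0.10) and Smad7 (-2.08 ± 0.12) were lower as well. Another ligand, Bmp7, ran the other way, at 10.55 and 10.33 against 7.31, 7.41 and 7.01 (3.20 ± 0.17).

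Reactive astrocyte and acute phase genes were lower in NSCs in 15 of 25 and higher in none (median -1.40). Osmr, the oncostatin M receptor, read 5.29 and 5.56 against 11.26, 11.11 and 11.26 (-5.78 ± 0.20), Cp (ceruloplasmin) differed by -5.73 ± 0.10 and Serpina3n by -4.43 ± 0.25. Of 14 LIF and STAT3 targets, 6 were lower, with Socs3 at -3.25 ± 0.21 and -1.97 at its dimmer probe set. Interferon response and antigen presentation genes were lower in 18 of 25 (median -1.55), led by Ifit3 (-4.10 ± 0.12). Usp18, B2m and Oasl2 were higher on NSC replicate 1 than on replicate 2 by more than 1, and the interferon median was -1.29 without replicate 2 and -1.89 without replicate 1.

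Cholesterol synthesis ran opposite to these, with 9 of 24 genes higher in NSCs and none lower (median 0.88). Lss, lanosterol synthase, read 10.48 and 10.28 against 8.03, 8.01 and 7.93 (2.40 ± 0.11). Elovl6, a fatty acid elongase (1.88 ± 0.12), and Dhcr7, the last enzyme of one cholesterol branch (1.81 ± 0.10), followed. Srebf2, the regulator of the pathway, was not called (0.58 ± 0.07). Glycolysis genes were called lower in 4 of 17 and higher in none, with Pfkp (-2.68 ± 0.16) and Ldhb (-2.56 ± 0.09) among the lower ones. The list's median was -0.18, and its sign depended on the NSC array kept: 0.12 without NSC replicate 1 and -0.44 without replicate 2.

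Matrix genes were lower in NSCs in 16 of 28 and higher in 2. Fn1 (fibronectin) read 8.63 and 8.73 against 12.71, 12.94 and 12.91 (-4.17 ± 0.13), Timp3 differed by -5.04 ± 0.19 and Col8a1 by -4.55 ± 0.14. Fbln2 (2.72 ± 0.21) and Fbln1 (1.72 ± 0.16), fibulins, were higher in NSCs.

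Markers of other cells were uneven among the arrays. Of 18 fibroblast and meninges genes, 7 were lower in NSCs and 1, Pdgfra, was higher. Ogn (osteoglycin) was the most different gene in the comparison, at 5.0 and 4.95 against 12.37, 12.12 and 12.25 (-7.27 ± 0.14, 155-fold), and Islr differed by -5.80 ± 0.16, while Lum (-0.03 ± 0.26), Dpt (0.03 ± 0.24) and Twist2 (-0.08 ± 0.09) were not called. The mean of the list was 6.56 and 6.62 in NSCs and 7.62, 7.70 and 7.96 in astrocytes, with Dcn at 8.48 and Col3a1 at 8.44 on astrocyte replicate 3 against at most 7.36 on the other astrocyte arrays. Their part in the matrix and contractile results was not tested.

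Microglia and macrophage genes were called lower in NSCs in 2 of 19, Lyz2 (-2.40 ± 0.33) and Ctss (-1.04 ± 0.22), and the list's mean was 5.87 and 5.88 against 6.72, 6.39 and 6.34. Lyz2 was highest on astrocyte replicate 1, at 8.84 against 8.11 and 8.16, and Ctss fell short of the limit without that array (-0.76). Ctss was also short of it without NSC replicate 1 (-0.94) and, with all arrays kept, under cyclic loess (-0.95), median centring (-0.97) and array weights (-0.96). The count was 4 without astrocyte replicate 3 and 1 without astrocyte replicate 1. The list's median was -0.51, and the groups did not overlap in 17 of 19 members. Over all genes, the NSC arrays lay above all astrocyte arrays for 27.0% and below them for 32.3%. Uncalled members below astrocytes included the complement genes C1qa (-1.0 ± 0.14) and C1qb (-0.81 ± 0.17), the lysosomal Cd68 (-0.85 ± 0.26) and Fcer1g (-0.71 ± 0.20), while P2ry12 (-0.03 ± 0.09) and Aif1 (-0.02 ± 0.09) overlapped between the groups. The part of these cells in the interferon and acute phase results was not tested.

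Of 15 ependymal and choroid plexus genes, 4 were lower in NSCs and 2 higher. The lower ones were genes of motile cilia, with Foxj1, the master factor of motile cilia, at 6.79 and 6.69 against 8.75, 8.90 and 8.47 (-1.96 ± 0.11), Enkur at -2.45 ± 0.17 and Rsph1 at -2.34 ± 0.29. The list's members Tmem212, Ccdc153, Dnah11 and Ak7 were not called. Pericyte genes were called only for Pdgfrb (-2.70 ± 0.16) and Cspg4 among 10, a share of 10.0% each way. Endothelial genes were called only for the transporter Slco1a4 (-5.47 ± 0.12) among 13 (7.7%), while Cldn5 (-0.06 ± 0.11) and Pecam1 (0.10 ± 0.13) were not called. Over all genes, 6.49% were higher and 8.1% lower. The NSC arrays were uneven for Hbb-y, an embryonic globin, which read 10.68 on replicate 1 and 8.13 on replicate 2 against 5.38 to 5.56 in astrocytes (3.94 ± 0.51). Ttr (transthyretin), a choroid plexus product, read 8.06 and 5.78 against 5.07, 5.16 and 5.28 (1.75 ± 0.45). The difference was 0.61, under the fold limit, without NSC replicate 1 and 2.89 without replicate 2. With only the 2 groups compared in the fit, Ttr was not called (limma adjusted p 0.053). Xist overlapped between the groups (0.06 ± 0.25), and the Y-linked Uty (0.40 ± 0.21), Kdm5d (0.53 ± 0.11) and Eif2s3y (0.82 ± 0.28) were not called.

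The other 7 arrays of the series, of cells sorted at day 6 of reprogramming (3 arrays) and of induced pluripotent stem cell lines (iPSCs) derived from astrocytes or from embryonic fibroblasts (2 each), served to find what set NSCs or astrocytes apart. A gene counted when all 4 contrasts of the group with the others called it with 1 sign, and those contrasts share the group's arrays. For NSCs, the shares called higher and lower were 5.94% and 2.94% against day 6 cells, 7.51% and 5.03% against iPSCs from astrocytes, and 7.45% and 4.63% against iPSCs from fibroblasts. In NSCs, 360 genes (1.81%) were set apart as higher and 101 (0.507%) as lower, and in astrocytes 1045 (5.24%) as higher and 533 (2.67%) as lower. Of the 30 young neuron genes, 15 were set apart as higher in NSCs, and of the 42 mature astrocyte genes, 24 were set apart as higher in astrocytes. Replication and mitosis genes were set apart differently: 22 and 21 of 27 were lower in astrocytes than in every other group.

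Dcx and Tbr1 led the genes set apart as higher in NSCs, above each other group by at least 3.89 and 3.82. They were followed by Neto1, a kainate receptor auxiliary protein (3.80), Lrrn1 (3.62), the GABA transporter Slc6a11 (3.5), the embryonic globin Hbb-y (3.42), which was uneven between the NSC arrays, and the interneuron peptide Sst (3.37). Sst read 10.01 and 10.20 in NSCs and 6.47, 6.75 and 6.78 in astrocytes. The genes set apart as lower in NSCs were led by Ptgs2 (at least 3.72 below each other group), S100a6 (3.17), Srgn (3.02), Anxa1 (2.85), Ccn1 (2.59) and Ccn2 (2.52). In astrocytes, Ogn (6.92), Gfap (5.95), Ecrg4 (5.72) and Cp (5.54) led the genes set apart as higher. Those set apart as lower were led by Rps6ka6 (3.25), Taf1d (3.21), the branched-chain aminotransferase Bcat1 (3.03), and Zfp57 (2.98) and Zdbf2 (2.94), genes tied to imprinting. Zfp57, which keeps imprints methylated, read 9.79 and 9.12 in NSCs against 6.53, 6.45 and 6.44.

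**Figure D4:**
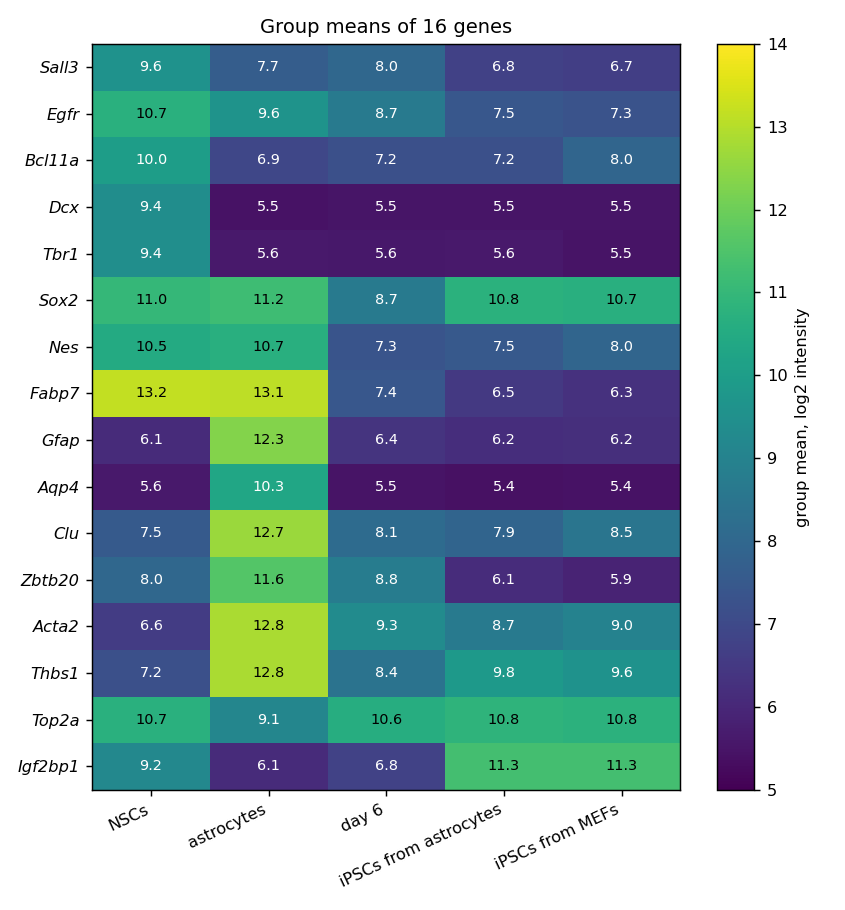
Group means in log2 intensity of 16 genes in all 5 groups of the series, with the value in each cell and brighter colours for higher levels. Dcx and Tbr1 are high in NSCs alone (9.4), Gfap, Aqp4 and Clu in astrocytes, and Sox2 is at 10.68 or above in every group but the day 6 cells.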

How the data were processed

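RNA was hybridised to Affymetrix Mouse Gene 1.0 ST arrays. The authors deposited probe set intensities from RMA (robust multi-array averaging), as the submitters' processing notes say, with no version in the sources used here. The deposited intensity values are linear, from 20.2 to 15436, with array medians from 97.9 to 104.9, so log2 was taken here. No value lies under 20.2, and a constant added before deposit would shrink differences of dim genes, so subtracting 16 was tried.

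Of 28853 probe sets, 21789 have 1 gene symbol, 1621 several and 5443 none in the platform table. Each of 19938 genes was represented by its brightest probe set, by mean level, among those with 1 symbol. limma 3.58.1 in R 4.3.3 fitted a mean for each of the 5 groups to the 12 arrays, with 7 residual degrees of freedom (10.9 after adding the prior). A run of the fit on simulated data gave each gene the same spread in every group, so it cannot speak to the uneven NSC arrays. Without counts, the number of arrays limits the precision. Between arrays of a group, Pearson's r was 0.9922 for NSCs and 0.9924 to 0.9935 for astrocytes.

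Members and the 35 gene lists were chosen with earlier results of these data known, so lists are described by counts and medians, with no list test. Genes named are the 20 highest and 20 lowest calls, the stem, neurogenic and glial list members, up to 6 others per list, 10 set apart each way, and sex genes. The top and set-apart picks skip predicted genes, clones, chemoreceptor genes and ribosomal pseudogenes. Outside that rule, Srebf2, Etv5, Actb and other uncalled genes were named beside their list after their values were seen. So were called genes such as Jag1, Hey2, Etv4, Fgfr1, Smad6, Smad7 and Tgfb2, and Fezf2, which is in no list. Alternatives were mean probe sets, only genes above the array median on at least 2 arrays, cyclic loess, median centring, 2 groups only, trend and robust variance, array weights, replicate block, 16 subtracted, each array left out, p under 0.01 and no fold limit. Promoter windows are from RefSeq (GRCm38.p6), and list names were matched to genes through its symbols. Tables were handled in Python 3.11.15 (numpy 2.4.6, pandas 2.3.3) and plots drawn with matplotlib 3.10.9.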

Additional observations from a re-analysis of the deposited data

How the results depend on the processing

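Apart from dropping the fold limit, the alternatives gave 1182 to 1500 genes higher and 1463 to 1825 lower in NSCs, against 1293 and 1614. Genes set apart ranged from 309 to 439 (higher in NSCs), 92 to 129 (lower in NSCs), 928 to 1159 (higher in astrocytes) and 446 to 629 (lower in astrocytes). With no fold limit, 4508 genes were higher and 4636 lower, 1361 and 811 were set apart in NSCs and 2931 and 2394 in astrocytes. Centring arrays on their median moved the share of calls that were higher from 44.5% to 49.9%.

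With the replicate number as a block, 1244 genes were higher and 1656 lower, 360 and 104 were set apart in NSCs and 1060 and 489 in astrocytes. Deviations of same-numbered arrays from their group means correlated at 0.009 and -0.076. The deviations of the 2 NSC arrays mirror each other, so these values cannot decide whether the numbers pair the samples. No named gene that was called changed sign under any alternative. Of 381 named genes, 5 lost and 8 gained a call without NSC replicate 1, and 9 lost and 5 gained one without NSC replicate 2. Cyclic loess called 5 radial glia genes lower in place of 3.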

Other observations

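Further genes among the largest differences belong to no list. Higher in NSCs were Sfrp2, a secreted Wnt modulator, at 9.88 and 9.72 against 6.32, 5.95 and 6.49 (3.54 ± 0.15), Elovl2, an elongase of polyunsaturated fatty acids (3.55 ± 0.17), Mpped2 (3.77 ± 0.16) and Car3, a carbonic anhydrase that read 10.94 on NSC replicate 1 and 9.56 on replicate 2 (3.72 ± 0.29). Grm5, a metabotropic glutamate receptor, was higher by 3.37 ± 0.09. Lower in NSCs were the small heat shock protein Hspb8, at 7.11 and 7.08 against 12.31, 12.07 and 12.38 (-5.16 ± 0.10), the complement inhibitor Cd59a (-5.37 ± 0.11), Serpinf1 (-5.45 ± 0.14), the steroid-metabolising Akr1c14 (-5.11 ± 0.15), Thy1 (-5.10 ± 0.12) and the insulin-like growth factor binding protein Igfbp5 (-4.78 ± 0.10).

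Of 16 pluripotency genes, 2 were called, both lower in NSCs (12.5%, against 8.1% of all genes). Tfcp2l1 read 5.87 and 5.87 in NSCs and 8.58, 8.64 and 8.81 in astrocytes (-2.81 ± 0.10), and Klf2, also an immediate early gene, differed by -1.43 ± 0.15. Nanog (-0.18 ± 0.14) and Pou5f1 (-0.16 ± 0.17) were not called. Taf1d, which hosts small nucleolar RNAs, was higher in NSCs at each of its 9 probe sets, by 1.42 to 3.21.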
